A study of Rattus norvegicus with 8 samples.

Results

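The genes described here make up the signalling and turnover of adenosine and of the nucleotides it is formed from: the adenosine receptors Adora1, Adora2a and Adora2b, the nucleotide receptors P2rx4 and P2ry2, the ectoenzymes Entpd1, Entpd2 and Nt5e, and the intracellular enzymes Ampd3 and Ak3l1. They were taken by the gene symbol in the array's annotation, ignoring case and the endings _predicted and _mapped, and each of the 10 genes has 1 probe, of 22523 probes and 21557 gene symbols in all. Ak3l1 is named Ak4 in the current rat gene table. The enamel organ, the multicellular layer that covers the forming enamel, was dissected from the mandibular incisors of 4 male Wistar Hannover rats aged 4 weeks, and each rat gave 1 secretory-stage and 1 maturation-stage sample of total RNA. The rats were neither treated nor genetically altered as far as the sources used here state. The 8 samples were each read on 1 array of the Illumina RatRef-12 v1 type, on which many beads carry the probe of a transcript, so that each stage has 4 arrays, and the replicate number names the rat. The samples are bulk tissue: ameloblasts together with the papillary cells, vessels and other cells of the layer.

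ATP that leaves a cell is cut stepwise at the cell surface. Entpd1 (CD39) and Entpd2 are ectonucleotidases that take ATP towards ADP and AMP, and Nt5e (CD73) takes AMP to adenosine. ATP and UTP signal through P2X channels and P2Y receptors, whereas adenosine signals through G-protein-coupled adenosine receptors, of which Adora2a and Adora2b raise cyclic AMP and Adora1 lowers it. Inside the cell, adenylate kinases such as Ak4 of the mitochondrial matrix interconvert adenine nucleotides, and AMP deaminases such as Ampd3 turn AMP into IMP and so away from adenosine. During amelogenesis the secretory-stage ameloblasts lay down the enamel matrix, and the maturation-stage ameloblasts remove it, transport ions and complete mineralization. The comparison asks how transcript levels differ between these stages.

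The genes were proposed with the stage comparison known, so their own differences between the stages are given as a description, with no p-value; where a gene is said to be called or not called, this says only on which side of the thresholds used for all probes it lay, and supports nothing. For orientation, the 250 bases upstream of the annotated start are shown for the receptor and the kinase with the largest differences and for the gene that differed in the opposite direction (RefSeq, assembly GRCr8, plus strand, 5′ to 3′). The capitals mark each match to the GC box GGGCGG on either strand, overlapping matches included. The stretches lie at chr10:47439462-47439711 for Adora2b, chr5:121154886-121155135 for Ak3l1 (Ak4) and chr8:98150675-98150924 for Nt5e.
Adora2b: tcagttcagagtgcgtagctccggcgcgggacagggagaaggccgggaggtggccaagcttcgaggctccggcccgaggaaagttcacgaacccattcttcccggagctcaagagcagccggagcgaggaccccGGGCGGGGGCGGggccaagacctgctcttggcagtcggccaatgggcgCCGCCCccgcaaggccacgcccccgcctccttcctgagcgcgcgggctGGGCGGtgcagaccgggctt
Ak3l1 (Ak4): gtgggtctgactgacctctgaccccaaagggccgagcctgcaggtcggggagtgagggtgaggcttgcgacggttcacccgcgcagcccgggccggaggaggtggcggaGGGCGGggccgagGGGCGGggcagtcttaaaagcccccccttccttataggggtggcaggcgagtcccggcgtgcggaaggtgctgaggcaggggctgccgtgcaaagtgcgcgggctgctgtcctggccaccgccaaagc
Nt5e: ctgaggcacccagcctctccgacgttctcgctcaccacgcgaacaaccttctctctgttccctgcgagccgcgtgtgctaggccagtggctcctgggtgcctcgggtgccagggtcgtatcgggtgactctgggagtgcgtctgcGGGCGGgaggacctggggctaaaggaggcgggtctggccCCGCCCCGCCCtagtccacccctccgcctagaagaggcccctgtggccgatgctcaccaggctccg
A promoter entry was found for 8 of the 10 genes, those of Adora2a and Ampd3 not being matched. The GC box occurred in 5 of these 8 upstream stretches, with 4 matches in Adora2b, 3 in Nt5e, 3 in P2ry2, 2 in Ak3l1 and 2 in Entpd2, and in 30.5% of all 33469 stretches of the same length. It was therefore present upstream of genes that were higher and of the one that was lower in maturation. ACGTG, a form of the core of the hypoxia response element, was found in P2ry2 alone of the 8 (16.6% of all). Other forms of that core, such as GCGTG, were not searched. The cyclic AMP response element TGACGTCA was found in none of the 8 (1.59% of all). A match describes these letters only, and nothing follows from it about a factor.

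Signals are given as normalized log2 values, that is, after background correction, an offset of 16 and quantile normalization. Log2 fold changes above 0 stand for higher levels in maturation, with the standard error from limma, and a probe was called when its Benjamini-Hochberg adjusted p in limma was below 0.05 and its fold change at least 1.8. Detection (a detection p below 0.05 against negative-control beads) was reached by 11164 to 11450 probes on the arrays of the maturation stage and by 10667 to 10941 on the others. The summed signals of an array were 13355073 to 16122665 in maturation and 11881691 to 12046793 in the secretory stage, without overlap. The stage of the tissue was borne out by most of its markers. Of 5 secretory ameloblast markers 3 were called lower in maturation, beside 3.15% of all probes. Of 5 maturation ameloblast markers 4 were called higher, beside 4.60%, and Slc26a4 was detected on no array. Enam and Mmp20, of the secretory-stage enamel matrix and its protease, had log2 fold changes of -4.98 and -4.03, and Slc24a4 and Car6 of the maturation stage 5.07 and 6.67. Enam read 9.08 and 8.22 in the maturation stage of rats 1 and 4 but 5.17 and 5.53 in that of rats 2 and 3, and the matrix genes Amelx (-0.53) and Ambn (-0.36) were not called. With 4 arrays per stage, their number sets the precision.

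Of the 10 genes, 5 were called higher in maturation (Ak3l1, Adora2b, Ampd3, P2ry2 and Entpd2), 1 was called lower (Nt5e), and 4 were not called (Adora1, Adora2a, Entpd1 and P2rx4). Over all probes 4.60% were called higher and 3.15% lower (1035 and 710 probes). All of those lie among the 13512 probes detected on at least 1 array, as do 9 of the 10 genes. All 4 maturation-stage values lay above all 4 secretory-stage values for 6 genes and below them for 1, against 13.1% and 14.6% of all probes. Because the genes were picked from this contrast, nothing is read from these shares. The median log2 fold change was 0.88 over the 10 genes and -0.01 over all probes. Fewer cells of a type and less RNA per cell cannot be told apart in bulk tissue.

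**Figure D1:**
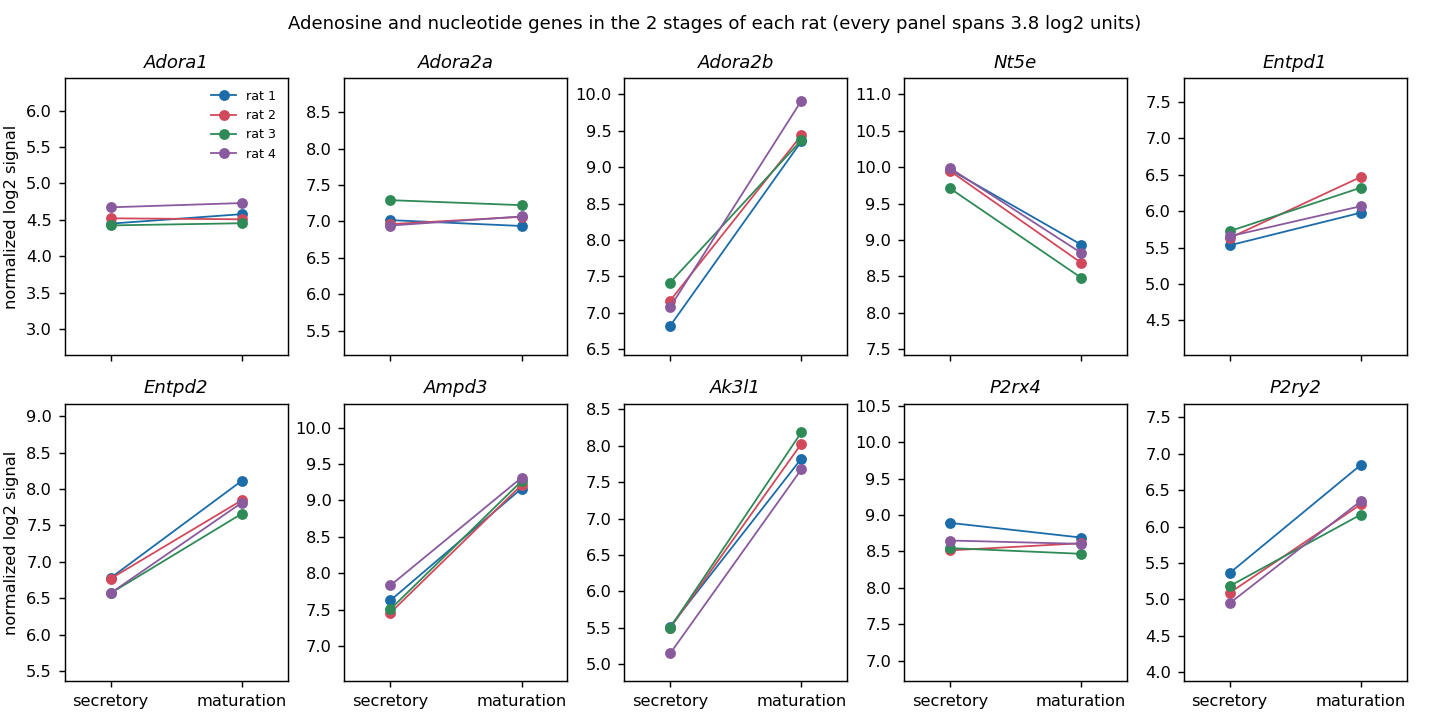
Normalized log2 signal of each gene (vertical axis, every panel spanning the same 3.8 units) in the secretory-stage and the maturation-stage sample, with a line and a colour for each of the 4 rats. The lines of Adora2b, Ampd3, Ak3l1, Entpd2, P2ry2 and Entpd1 rise in 4 of 4 rats, those of Nt5e fall in 4 of 4, and those of Adora1, Adora2a and P2rx4 stay near level.

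The adenosine receptors differed from one another. Adora2b, the low-affinity receptor that responds when adenosine is abundant, read 6.82, 7.17, 7.41 and 7.08 in the secretory stage of rats 1 to 4 and 9.35, 9.44, 9.37 and 9.91 in their maturation stage. Every maturation-stage array stood well above every secretory-stage array, and rat 4 was apart from the other 3 in maturation. The means were 9.52 ± 0.265 and 7.12 ± 0.246 (SD, n = 4 each), a log2 fold change of 2.40 (SE 0.153), or 5.27-fold. Within the rats the difference ran from 1.95 to 2.83. In the deposited signals, before any correction, the Adora2b probe gave 782 to 1242 in maturation and 176 to 232 in the secretory stage, 3.37 to 6.41 times as much in the same rat. Among the 22523 probes, 94 had a larger log2 fold change.

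Adora2a, the high-affinity receptor that also couples to cyclic AMP, read 7.02, 6.96, 7.29 and 6.94 in the secretory stage and 6.94, 7.06, 7.22 and 7.07 in maturation. The stages overlapped and 2 of the 4 rats were higher in maturation. The log2 fold change of Adora2a was 0.02 (SE 0.0933); scaled to a common median in place of quantiles it was 0.34, and without normalization between arrays 0.54. Adora1, the receptor that lowers cyclic AMP, was detected on 0 of the 8 arrays and had no level above background in either stage (means of 4.57 and 4.52). Adora3, the remaining adenosine receptor, was detected on all 8 arrays, with values of 5.55, 5.99, 5.68 and 5.42 in the secretory stage and 5.78, 6.24, 6.25 and 5.94 in maturation. Its stages overlapped, but it was higher in maturation in 4 of 4 rats, by 0.23 to 0.56 (log2 fold change 0.39, adjusted p = 0.075 in limma and 0.012 with the rat as a block), below the fold threshold either way. Adora2b was thus the 1 adenosine receptor of the 4 that was called.

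The ectoenzymes that make adenosine did not move one way. Nt5e, the enzyme of the last step, read 9.97, 9.95, 9.71 and 9.99 in the secretory stage and 8.94, 8.69, 8.48 and 8.82 in maturation. It was lower in maturation in 4 of 4 rats, with means of 8.73 ± 0.195 against 9.90 ± 0.130 (SD, n = 4 each) and a log2 fold change of -1.17 (SE 0.106), or 2.25-fold lower. The differences within rats lay between -1.26 and -1.03. In maturation Nt5e was highest in rats 1 and 4, the rats in which Enam was also highest there (9.08 and 8.22). Of the other genes called lower, this held for Acpp, Entpd3, P2ry1 and Prps2 but not for Enpp2 and Slc17a9. Whether these levels are linked was not tested. The deposited signals of Nt5e were 468 to 742 in maturation and 797 to 922 in the secretory stage. Median scaling gave -0.84 and no normalization -0.64, both short of the fold threshold but lower.

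Entpd2, which acts mainly on ATP, read 6.78, 6.77, 6.57 and 6.57 in the secretory stage and 8.11, 7.85, 7.66 and 7.81 in maturation. The stages did not overlap, and the log2 fold change was 1.19 (SE 0.101), or 2.28-fold. Without background correction it was 0.74 and not called. Entpd1, the ectonucleotidase of leukocytes and vessels, read 5.53, 5.63, 5.73 and 5.66 in the secretory stage and 5.98, 6.47, 6.32 and 6.07 in maturation. It was higher in maturation in 4 of 4 rats, but the 1.49-fold difference (log2 0.57, SE 0.108) lay below the fold threshold; on the log2 scale it was 0.98 and called without normalization between arrays, 0.37 with an offset of 50 and 0.23 without background correction. The 3 ectoenzymes therefore stood at 1 lower, 1 higher and 1 below the fold threshold.

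The nucleotide receptors also split. P2ry2, a receptor of ATP and UTP found on many epithelia, read 5.36, 5.09, 5.18 and 4.95 in the secretory stage (3 of 4 arrays with detection) and 6.85, 6.30, 6.16 and 6.35 in maturation. The stages did not overlap, rat 1 was the highest in both, and the log2 fold change was 1.27 (SE 0.147), or 2.41-fold. The secretory-stage values of P2ry2 are close to background, and its log2 fold change was 0.49 without background correction and 0.79 with an offset of 50, neither called. P2rx4, an ATP-gated channel, read 8.89, 8.51, 8.54 and 8.65 in the secretory stage and 8.69, 8.61, 8.47 and 8.60 in maturation. After normalization the stages overlapped, with a log2 fold change of -0.06 (SE 0.0916), which became 0.30 with median scaling and 0.50 without normalization. The deposited signals of P2rx4 did not overlap, with 464 to 637 in maturation and 395 to 462 in the secretory stage.

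Both intracellular enzymes were higher in maturation. Ampd3 read 7.63, 7.46, 7.50 and 7.83 in the secretory stage and 9.16, 9.21, 9.26 and 9.31 in maturation. The 4 maturation-stage values lay within a narrow range (9.24 ± 0.0647, SD, n = 4), and the log2 fold change was 1.63 (SE 0.0863), or 3.10-fold. Its signals were 741 to 858 against 237 to 264. Ak3l1 read 5.52, 5.50, 5.50 and 5.15 in the secretory stage and 7.82, 8.03, 8.18 and 7.68 in maturation. It had the largest log2 fold change of the 10 genes, 2.51 (SE 0.125), or 5.70-fold, and 85 of all probes had a larger one. The secretory-stage signals of 119 to 128 were near background (detection p up to 0.0376), and its log2 fold change was 1.33 without background correction and 1.85 with an offset of 50.

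The spread between rats was computed from the variances within each stage, without use of the stage difference. It was largest for Adora2b (SD 0.255 within stages) and P2ry2 (0.244), which lay at percentiles 89.3 and 87 of the 9156 probes detected on all arrays. P2ry2 itself was detected on 3 of the 4 secretory-stage arrays. The median of those probes was 0.145, near the values of Adora2a (0.141), P2rx4 (0.138) and Entpd2 (0.157). The spread of Ampd3 (0.127) lay below it. Each member signal is a mean over 25 to 67 beads, with a bead standard error of 2.16% to 6.29% of the signal.

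**Figure D2:**
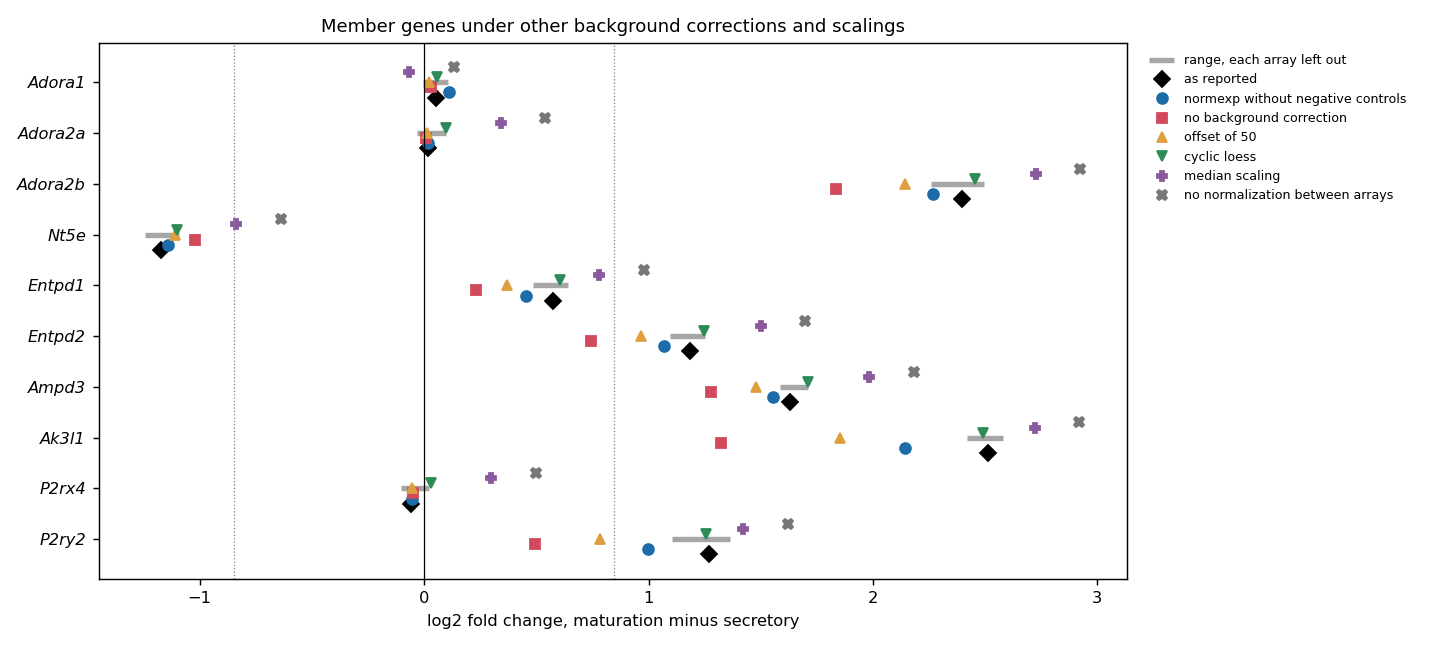
Log2 fold change of each gene (horizontal axis, maturation minus secretory, 4 arrays each) as reported, under other background corrections and scalings, and over the range obtained when each array is left out; dotted lines mark the fold threshold. Nt5e stays below 0 and the 5 genes called higher stay above 0 at every point, while Adora2a and P2rx4 move from near 0 to 0.54 and 0.50 without normalization between arrays.

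Around these genes, 89 others of adenosine, nucleotide and purine metabolism were listed, of which 79 have a probe and 66 were detected on at least 1 array. In limma 8 were called higher in maturation and 6 lower, beside 4.60% and 3.15% of all probes (with median scaling 14 and 5, beside 1610 and 465 of all probes in place of 1035 and 710), 65 were not called, and their median log2 fold change was 0.03.

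**Figure D3:**
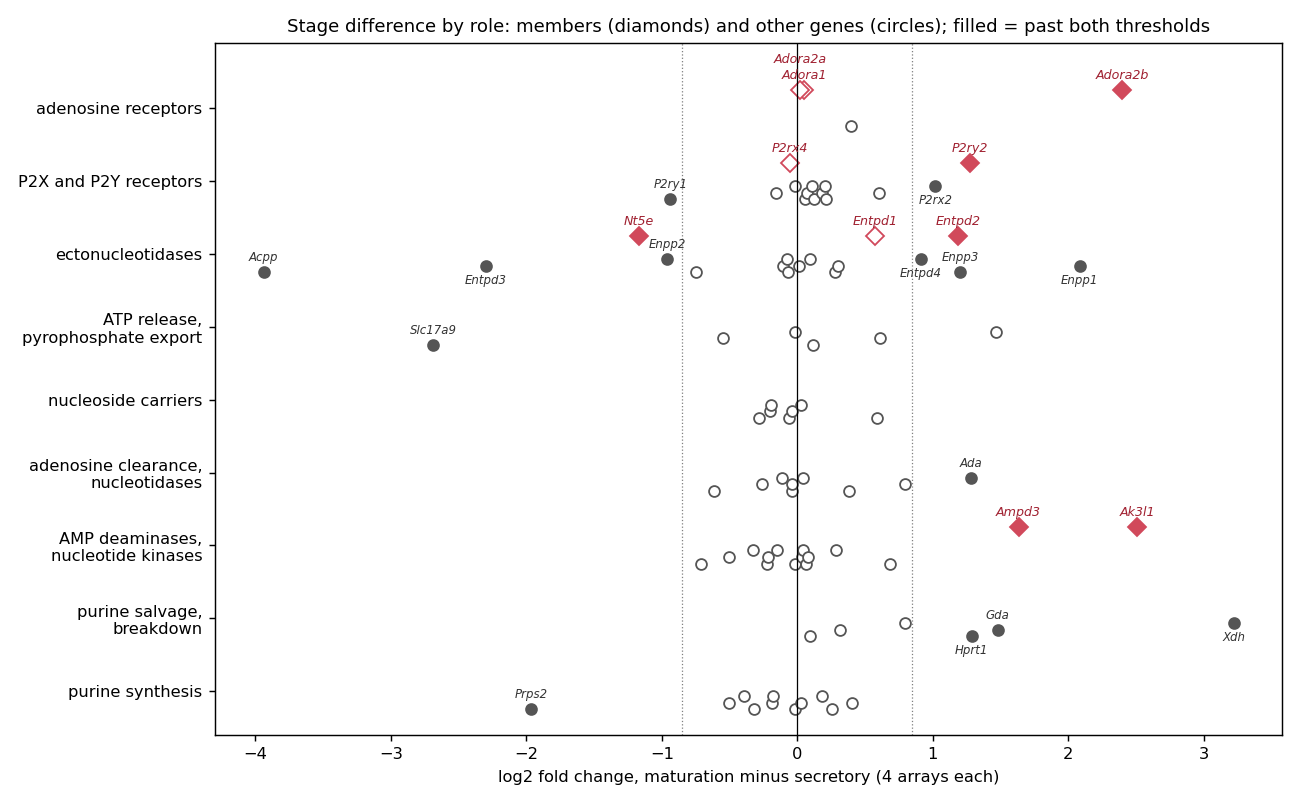
Log2 fold change (horizontal axis, maturation minus secretory, 4 arrays each) by role: diamonds are the 10 genes described here, circles the 79 others, and filled symbols passed both the adjusted p and the fold threshold (dotted lines). Filled symbols lie on both sides of 0 among ectonucleotidases and on the right only among purine salvage and breakdown; the open circle right of the threshold at 1.47 is Panx3, whose adjusted p was 0.11 and which was picked out after its value was seen.

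Among the other P2 receptors, P2rx2 was called higher and P2ry1 lower. P2rx2, a further ATP-gated channel, had values of 4.89 to 5.49 in the secretory stage and 5.99 to 6.43 in maturation (log2 fold change 1.02, adjusted p = 4.6e-04 in limma); it was not called with normexp without negative controls (0.80), without background correction (0.39) or with an offset of 50 (0.62). P2ry1, the receptor of ADP, had values of 5.86 to 6.40 and 4.91 to 5.59 (-0.94, adjusted p = 0.0018); it was not called without maturation replicate 2 (-0.81), with normexp without negative controls (-0.73), without background correction (-0.35), with an offset of 50 (-0.57), with median scaling (-0.76) or without normalization (-0.56). P2ry13 was detected on all 4 maturation-stage and on no secretory-stage array, at least 1.36-fold higher in maturation (adjusted p = 0.0016); it was not called, except without normalization between arrays. P2ry14, the receptor of UDP-sugars, had 0.21 (adjusted p = 0.039, and 0.067 with the rat as a block), below the fold threshold. P2rx1 (0.18), P2rx5 (0.11) and P2ry4 (-0.16) did not pass the adjusted p. P2ry12 and P2rx7 were detected on no secretory-stage array and on 3 and 1 maturation-stage arrays, and no fold is given for them. P2rx6, P2ry6 and P2ry10 were detected on no array. The secretory-stage values of P2rx2, as of P2ry2, were close to background.

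Of the other ectonucleotidases, 3 of 14 were called higher and 3 lower, beside 4.60% and 3.15% of all probes. Acpp (now Acp3), an acid phosphatase that like Nt5e can form adenosine from AMP, was lower in maturation: 10.2 to 10.6 in the secretory stage and 6.18 to 6.67 in maturation, or 15.3-fold (log2 fold change -3.94, adjusted p = 4.5e-08 in limma), and -2.999 on the log2 scale without background correction. Entpd3, of the same family as Entpd1 and Entpd2, was lower too, with 8.50 to 9.22 against 6.10 to 7.17 (-2.30, adjusted p = 8.5e-05), and -1.55 without background correction. Enpp2 (autotaxin), which acts mainly on lysophospholipids, had -0.96 (adjusted p = 6.3e-06), and -0.72, not called, without normalization between arrays. Enpp1, which cuts ATP to AMP and pyrophosphate, was higher in maturation, with 9.96 to 10.2 against 11.9 to 12.5 (2.08, adjusted p = 1.4e-06). Enpp3 had 1.20 (adjusted p = 2.4e-05) by one probe, while its second probe was detected on no array; without background correction it was 0.82 and not called. Entpd4, an enzyme of the Golgi, had 0.91 (adjusted p = 0.0020) but was not called without maturation replicate 2 (0.80), maturation replicate 3 (0.85) or secretory replicate 1 (0.81), with normexp without negative controls (0.71), without background correction (0.34) or with an offset of 50 (0.56). Entpd6 had -0.75 (adjusted p = 4.1e-04), below the fold threshold, Entpd5 had -0.08 (adjusted p = 0.87), and Entpd7 was detected on no array. Alpl, the tissue-nonspecific alkaline phosphatase, which cuts AMP and pyrophosphate among other substrates, had 0.30 (adjusted p = 0.017), below the fold threshold; it was picked out after its value was seen. Of these enzymes that act on AMP, Nt5e and Acpp were called lower and Alpl was not called.

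Slc17a9, the vesicular nucleotide transporter that loads ATP for release, was lower in maturation, with 8.33 to 8.64 against 5.59 to 6.11 (log2 fold change -2.69, adjusted p = 5.3e-07 in limma), and -1.62 without background correction. It was the 1 gene called among the 6 of ATP release and pyrophosphate export, beside 4.60% of all probes called higher and 3.15% lower. Of the 7 nucleoside carriers 0 were called in limma or in the test named in the methods; 1 higher and 1 lower passed the adjusted p but not the fold threshold, and the numbers at an unadjusted p below 0.05 were also 1 and 1. Ada, which deaminates adenosine to inosine, was higher in maturation (6.51 to 6.96 against 7.69 to 8.21, log2 fold change 1.28, adjusted p = 5.7e-05) and was the 1 gene called of 9 of adenosine clearance and nucleotidases; without background correction it was 0.82 and not called.

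Of the AMP deaminases, Ampd1, the form of skeletal muscle, was detected on 1 array, that of maturation replicate 4 (5.02 against 4.65 to 4.73 on the others of its stage). The summed level of the skeletal muscle markers was also highest on that array, and no fold is given for Ampd1. Ampd2 was detected on all arrays with -0.21 (adjusted p = 0.15), which turned to 0.14 with median scaling. Ampd3 was thus the 1 AMP deaminase called. Of the other adenylate kinases given here, Ak5 had 0.68 (adjusted p = 0.0047) below the fold threshold (called at 0.87 with median scaling and 1.07 without normalization, and 0.26 without background correction), Ak3 had 0.04 (adjusted p = 0.81) and Ak7 0.03 (adjusted p = 0.86), and Ak8 was detected on no array.

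Downstream, the genes of purine salvage and breakdown had 3 of 6 called higher and 0 lower, with a median of 1.04; at an unadjusted p below 0.05, 5 were higher and 0 lower. Over all probes 4.60% were called higher and 3.15% lower, and 15.9% were higher and 18.3% lower at an unadjusted p below 0.05; the list was chosen with results known. Xdh, which forms uric acid, read 8.54 to 8.81 in the secretory stage and 11.83 to 11.98 in maturation, or 9.33-fold (log2 fold change 3.22, adjusted p = 1.0e-08 in limma). Gda, which deaminates guanine, had 1.48 (adjusted p = 2.1e-04), and Hprt1, which salvages hypoxanthine and guanine, had 1.29 (adjusted p = 5.3e-07). Of the 11 genes of purine synthesis 0 were called higher and 1 lower: Prps2, which makes the ribose phosphate donor, with -1.96 (adjusted p = 3.9e-08).

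Some of these genes are also known from other cells of the layer, so the markers of those cells were read on the same arrays. Over all probes the shares called were 4.60% higher and 3.15% lower. Of 10 macrophage and leukocyte markers 8 were called higher in maturation and 0 lower (median log2 fold change 1.43). Their summed level (normalized values off the log scale, added over the list) was 10825 to 13988 in maturation and 3964 to 4716 in the secretory stage. Of 7 endothelial markers 2 were called higher (median 0.35), with sums of 6411 to 8067 and 4739 to 5889, and Cdh5 was detected on no array. Entpd1, Ada and P2ry13, all found in leukocytes, moved with the former list, as did the members called higher. The maturation ameloblast markers were higher in maturation too, with sums of 12054.5 to 14498 and 341 to 418, as were the endothelial and fibroblast sums. The part of any of those cells in the differences of these genes was not tested. Ampd3 is the AMP deaminase of red cells; of 7 erythroid markers 0 were called in limma or in the test named in the methods, and at an unadjusted p below 0.05, 3 were lower in maturation (Alas2, Epb42 and Gata1) and 0 higher. Their sums overlapped (48882 to 56832 and 42888 to 59403), and Gata1, a defining marker, was detected on no array, so that its value is a background reading. Of 9 skeletal muscle markers 0 were called in either test (1 higher at an unadjusted p below 0.05 in limma), and Myh4 was detected on no array. Their sums overlapped (332 to 1198 and 325 to 757), and rat 4 was highest in both stages, with 1198 in maturation against 332 to 438 in the other rats. Adora2b was highest in this maturation array, and without it the log2 fold change of Adora2b was 2.26. In the secretory stage Adora2b read 7.08 in rat 4, below rats 2 and 3 (7.17 and 7.41). A link of Adora2b to muscle was not tested. Of 8 fibroblast markers 1 was called higher (sums of 77777 to 81031 and 60328 to 71510), and of 7 glial markers 1 (673 to 860 and 644 to 699).

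**Figure D4:**
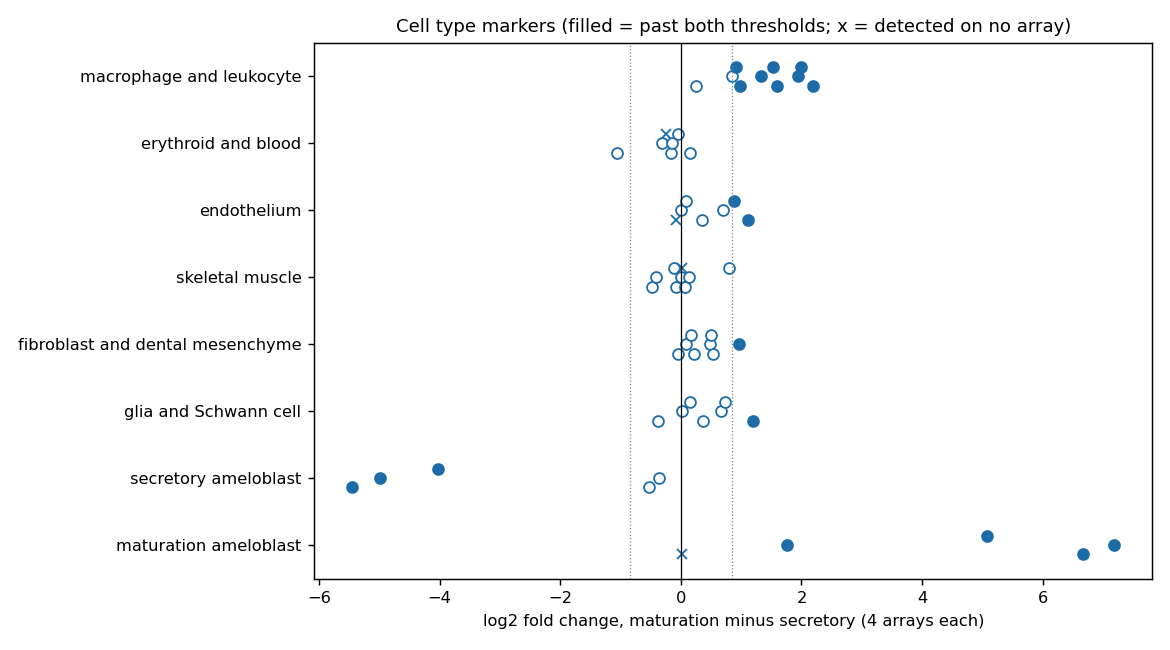
Log2 fold change (horizontal axis, maturation minus secretory, 4 arrays each) of the markers of 8 cell types, one symbol for each gene; filled circles passed both thresholds (dotted lines mark the fold) and crosses were detected on no array. The macrophage and leukocyte markers lie to the right of 0, with 8 of 10 filled, while the erythroid and skeletal muscle markers have none filled.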

How the data were processed

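Total RNA of 8 enamel organ samples, 4 per stage, was read on RatRef-12 v1 BeadChips. The authors deposited for each probe and array the mean bead signal as an intensity, without background correction or normalization, a detection p-value, the standard error of the bead signals as an intensity, and the number of beads as a count; the summarising software and the genome build are not given in the sources used here. Stage and rat came from the titles and the tissue. For 3 maturation-stage samples (2, 3 and 4) another label names the secretory stage; all 8 arrays lay nearer to the stage of their title.

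Processing used neqc of limma 3.58.1 in R 4.3.3: background correction by normexp, with negative controls derived from the deposited detection p-values, then an offset of 16, quantile normalization and log2. All 22523 probes were fitted with lmFit and eBayes, unpaired, with no filter, and adjusted p-values are Benjamini-Hochberg over all probes; the script was tested on simulated data. Each rat gave both stages, so replicate numbers pair the samples: the deviations of the samples of one rat from their stage means correlated at 0.195, 0.129, 0.219 and 0.234 over 11233 probes. The intensity of a probe was not set against that of another. Current symbols came by gene ID from a gene table of GRCr8 (17430 probes matched).

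The genes and all lists were chosen with earlier results of these data known. The genes named are the 10 described, every called gene of the 89 others, and those of the families Adora, P2rx, P2ry, Entpd, Ampd and Ak whatever their value; where a gene had several probes, the one with the largest limma statistic was used. A probe undetected on all 4 arrays of a stage has a lower bound for its fold, set against the dimmest detected probe on those arrays, and no fold where that bound is under 1. P2rx3, Entpd8, Nt5c, Nt5c1b, Ak1, Ak6, Nme4, Nme5, Pfas and Adssl1 were not analysed here, and 1 further gene of the pathway is not reported here. Alternatives were to leave out the negative controls or the whole background correction, to raise the offset to 50, cyclic loess or median scaling for quantiles, detection on at least 4 arrays, the unmoderated test named in the methods, blocking on the rat, each array left out, and, chosen after seeing the data, no normalization between arrays.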

Additional observations from a re-analysis of the deposited data

Results flagged for a closer look

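In 8 of the 72 sets of 4 arrays examined (a gene in a stage), 1 array stood apart from the other 3 by more than a gap that chance gives in about 5% of sets, or 3.6 sets. Among the genes described, Adora2b read 9.91 in maturation replicate 4 against 9.35 to 9.44 on the other arrays of its stage, Nt5e read 9.71 in secretory replicate 3 against 9.95 to 9.99, and Ak3l1 read 5.15 in secretory replicate 4 against 5.50 to 5.52. Without that array the log2 fold change was 2.26 for Adora2b, -1.23 for Nt5e and 2.44 for Ak3l1.

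Among the other genes, Enpp1 read 9.96 in secretory replicate 1 (others 10.20 to 10.22). The remaining values were close to background: P2rx5 with 4.85 in secretory replicate 3, P2ry4 with 5.15 in maturation replicate 2, P2ry12 with 4.80 in maturation replicate 1 and Ak7 with 4.89 in maturation replicate 3. No single array accounted for more than 2 of the 8.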

How the results depend on the processing

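With the rat as a replicate block, in the paired fit, 5 of the 10 genes were called higher and 1 lower, and 8 and 6 of the 79 others, the same numbers as without the block, and none of the named genes changed its call. When each array was left out in turn, the 10 genes gave 5 called higher and 1 lower throughout. The others gave 7 to 9 higher and 5 to 6 lower. Over all probes these fits called 1011 to 1068 higher and 694 to 752 lower, and the paired fit 1037 and 713. As the genes were chosen with this contrast known, nothing is read from these counts. Without background correction 3 of the 10 genes and 4 of the others were called higher, while over all probes 528 were called higher and 399 lower. With median scaling 0 of the 10 were called lower and 14 of the others higher, and without normalization between arrays 0 and 16; the latter moved the median of all probes to 0.13. Over all probes median scaling called 1610 higher and 465 lower, and no normalization 2268 and 332, against 1035 and 710 with quantile normalization. Of the 169 values of the 10 genes recomputed under alternatives, 155 kept the call or, with no call, moved by less than the spread between replicates, 5 lost the call, 1 gained it and 8 moved by more; none reversed a call. For the named others the numbers were 512 of 570, 18, 3 and 37. The detection filter, the unmoderated test and the rat block leave a log2 fold change as it was, so there only the call could change. No weight is put on these numbers, as the genes and lists were chosen with results known. The cause of the shifts under the other alternatives was not tested. A slide block was not run, since the columns used do not name the slide. Signals near background limit the sizes given for P2ry2, Ak3l1, P2rx2, Entpd4, P2ry1 and Slc17a9, among others.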
